A study of Mus musculus with 80 samples.

Results

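The genes described here are 10 genes of iron handling in mouse liver. They are the hepcidin genes Hamp and Hamp2, the ligand Bmp6, its target gene Id1, the protease Tmprss6, the iron sensor Tfr2, the transferrin receptor Tfrc, the iron exporter Slc40a1 (ferroportin), and the ferritin subunits Fth1 and Ftl1. Each was found by its gene symbol among the 78275 genes listed in the table of raw read counts, by a rule that uses no measured value. All 10 had counts high enough for testing, as did 21187 of the genes listed.

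The counts come from livers of male and female C57BL/6J mice, an inbred laboratory strain, bought at 8 to 12 weeks of age and housed in groups on standard chow. All mice shared the same lighting history, a light–dark cycle and then constant darkness, and the labels name no engineered allele. Control mice kept their food, and fasted mice lost it at circadian time (CT) 10, where CT counts the hours of the animals' internal day. Livers were taken every 4 h from CT8 to CT44, from 2 males and 2 females for each treatment and time, so that 80 mice gave 80 libraries. Food had been absent for 2 h at CT12 and for 34 h at CT44, whereas at CT8 the mice later called fasted were still fed. Each library is a piece of whole liver, so that in these data fewer cells of a type and less RNA per cell cannot be told apart.

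The libraries held from 25534901 to 59927771 gene counts. For 40 libraries the title gives another sex than the characteristics field, and for 40 another treatment, and the titles were used. Xist and Ddx3y, transcripts of female and male cells, went with the titled sex in all 80 libraries. Srebf1, the regulator of lipogenesis that insulin induces, fell by 3.13 on the log2 scale in the libraries titled fasted, and Fgf21, a fasting hormone of the liver, rose by 3.95. The summed level of 8 hepatocyte markers was 74491 to 148510 CPM (read counts scaled to a common library total) in the livers of CT12 to CT44. The second female control library of CT8 stood apart, with 31.3% of its counts on the ribosomal RNA row Rn18s-rs5 against a median of 0.101% and 4.88% in the next library. It enters the comparison at CT8, the control sex difference and the control rhythm, which were also computed without it.

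Hepcidin is a peptide hormone that hepatocytes release into the blood, where it binds ferroportin on macrophages, enterocytes and hepatocytes and has it degraded, so that less iron leaves these cells. Its gene is switched on by BMP6 and BMP2 from the sinusoidal endothelium, which act through hemojuvelin and SMAD factors, and by interleukin 6 through STAT3, and it is held back by the protease TMPRSS6. Inside cells, iron regulatory proteins bind hairpins in messenger RNAs when iron is short, which protects the transferrin receptor message and blocks translation of ferritin and ferroportin. Changes of that last kind act on translation and need not alter the amount of RNA that was counted here.

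Mice carry a pair of hepcidin genes. Hamp lies on chromosome 7 at 30942368 to 30944032 and Hamp2 at 30922372 to 30924681, both on the minus strand of GRCm38 in GENCODE M21, with a gap of 17686 bases between them. Their promoters are shown because the transcripts responded differently. The sequences are the 250 bases before the RefSeq start on GRCm38.p6 (chr7:30944030-30944279 for Hamp and chr7:30924182-30924431 for Hamp2, minus strand), and capitals mark matches to GGCGCC, the core of the BMP-responsive element, and to TTCNNNGAA, the palindrome that STAT factors recognise.
Hamp promoter: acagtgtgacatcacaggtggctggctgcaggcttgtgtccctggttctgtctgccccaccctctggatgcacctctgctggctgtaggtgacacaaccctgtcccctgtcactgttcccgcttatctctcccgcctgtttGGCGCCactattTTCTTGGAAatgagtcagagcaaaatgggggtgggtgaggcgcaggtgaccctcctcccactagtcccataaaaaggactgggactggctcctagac
Hamp2 promoter: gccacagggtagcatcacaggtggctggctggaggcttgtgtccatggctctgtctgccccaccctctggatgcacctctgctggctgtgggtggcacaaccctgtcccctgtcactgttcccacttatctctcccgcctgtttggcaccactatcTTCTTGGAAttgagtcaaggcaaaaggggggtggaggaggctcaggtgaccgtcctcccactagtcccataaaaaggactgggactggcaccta
Of 247 aligned bases, 227 (91.9%) were identical. The STAT palindrome began 97 bases before the start in Hamp and 94 bases before it in Hamp2, with the same letters. GGCGCC began 109 bases before the start in Hamp, and Hamp2 differs in it by the substitution G145A (counted from 1 at the 5′ end of the Hamp window), so that its window held no match. Searched on both strands, GGCGCC occurs in 9.59% and TTCNNNGAA in 7.02% of 32851 RefSeq promoter windows of the same length.

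The coding sequences of Hamp and Hamp2 are 252 bases each and differ at 16 of them, and 14 of the 16 lie in the last 78 bases, the 25 codons of the mature peptide and the stop codon. These stretches are printed because they decide whether a read can be given to the right gene, with capitals at the bases that differ between them.
Hamp mature peptide: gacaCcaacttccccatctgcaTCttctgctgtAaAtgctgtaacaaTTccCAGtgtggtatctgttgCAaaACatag
Hamp2 mature peptide: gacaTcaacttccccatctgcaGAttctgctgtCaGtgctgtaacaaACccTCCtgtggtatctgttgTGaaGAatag
Of 335 windows of 76 bases, the length of a read, in the Hamp transcripts, 12 (3.58%) also occur in Hamp2. Gm44662, a long non-coding RNA gene on the opposite strand, spans both hepcidin genes whole. The libraries kept the strand of the transcript, but the strand setting of the counting is not given in the sources used here.

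Averaged over CT12 to CT44 and over both sexes, 8 of the 10 genes differed between fasted and control livers at an adjusted p under 0.05 (edgeR's quasi-likelihood test with Benjamini–Hochberg adjustment over all tested genes). Of all tested genes 62.5% did so, and a call alone therefore set none of the 10 apart. Bmp6, Id1, Hamp, Tfr2 and Fth1 were higher in fasted livers, and Hamp2, Tmprss6 and Slc40a1 were lower, while Tfrc and Ftl1 were not called. The median log2 change was 0.08 over the 10 genes and -0.02 over all tested genes. Bmp6, Tmprss6, Hamp2, Tfr2, Slc40a1 and Fth1 passed under each alternative processing that was tried.

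**Figure D1:**
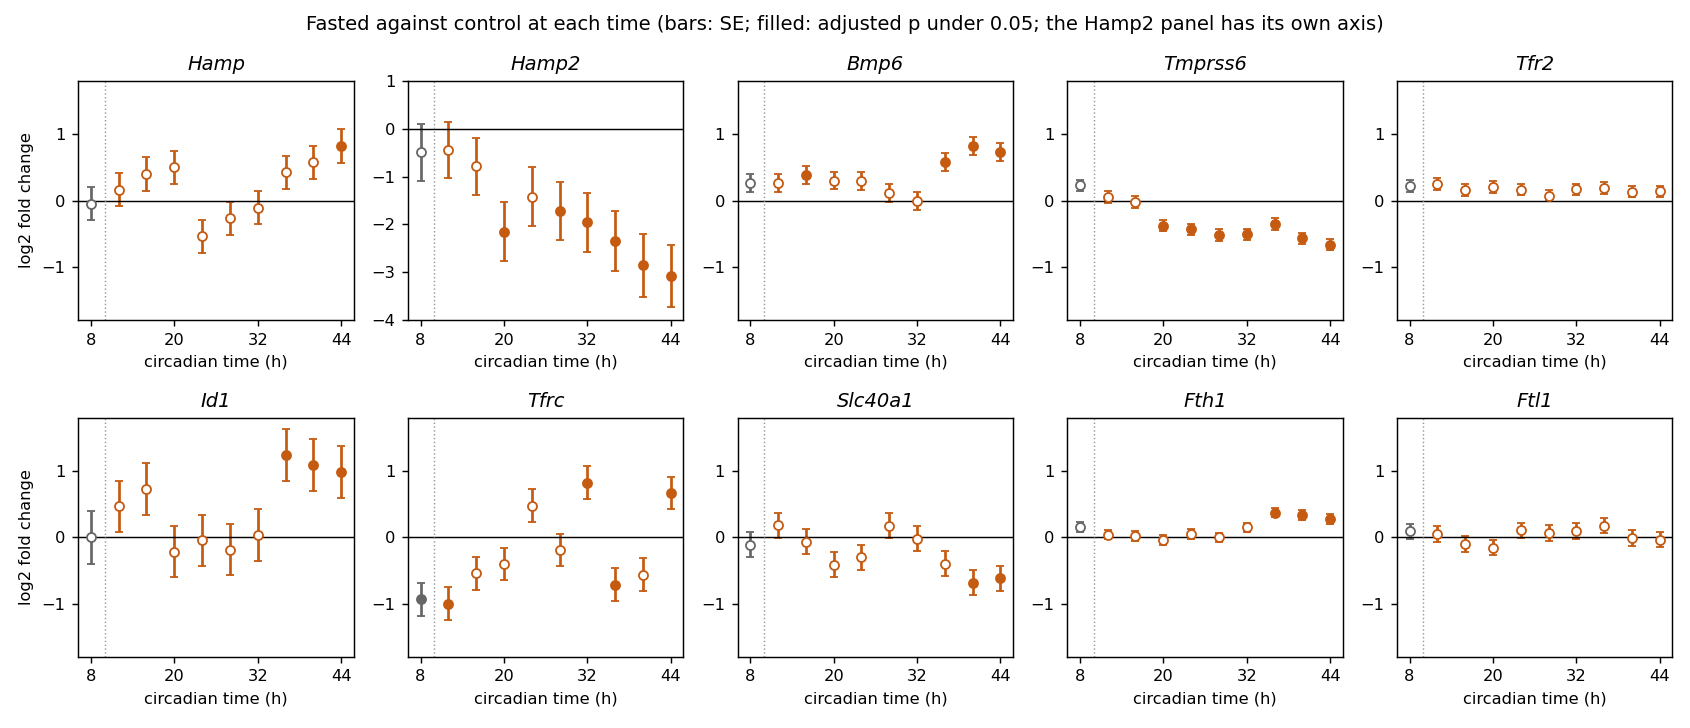
Log2 fold change of fasted against control livers (vertical axis) at each circadian time in hours (horizontal axis) for the 10 genes, with bars of 1 standard error and filled symbols where the adjusted p was under 0.05. CT8 precedes the removal of food at the dotted line. Hamp2 (own axis) and Tmprss6 lay lowest at CT44, with -3.08 and -0.66, and Bmp6, Id1 and Fth1 were called in the last 3 times.

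Hamp, the main hepcidin gene, was higher on average in fasted livers, but its change was not steady. Over CT12 to CT44 the 18 control males ran from 443 to 1398 CPM with a median of 860, and the 18 fasted males from 477 to 1913 with a median of 1034. The 18 control females ran from 868 to 1436 with a median of 1174, and the 18 fasted females from 472 to 2822 with a median of 1415. The groups overlapped widely in both sexes. Fasted livers reached higher values in both sexes, but lower ones only in females. The mean log2 change was 0.22 (SE 0.08, adjusted p = 0.0206), and it was lost without the first male replicates (0.15, adjusted p = 0.095) or the first female replicates (0.16, adjusted p = 0.27).

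Hamp in fasted livers was above control from CT12 to CT20, with log2 differences of 0.17 to 0.50, below it from CT24 to CT32, with -0.54 to -0.11, and above it again from CT36 to CT44, with 0.43 to 0.82. At CT44 the control males had 930 and 875 CPM and the control females 1289 and 1196, against 1362 and 1913 in fasted males and 2423 and 1847 in fasted females. Every fasted liver was above every control liver at that time. CT44 was the only time at which Hamp was called (log2 0.82, SE 0.25, adjusted p = 0.0081). The call was lost without the first female replicates (0.74, adjusted p = 0.11) or the second (0.88, adjusted p = 0.054).

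At CT24, 14 h into the fast, Hamp was low in fasted males, at 651 and 556 CPM, against 892 and 1164 in control males. Fasted females had 1016 and 930 CPM, against 1143 and 1270 in control females. Both sexes were thus below their controls, yet the difference did not pass the test (log2 -0.54, SE 0.25, adjusted p = 0.12). At CT28 the fasted livers had 1447 and 477 CPM in males and 708 and 472 in females, and a single male was far above the rest.

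**Figure D2:**
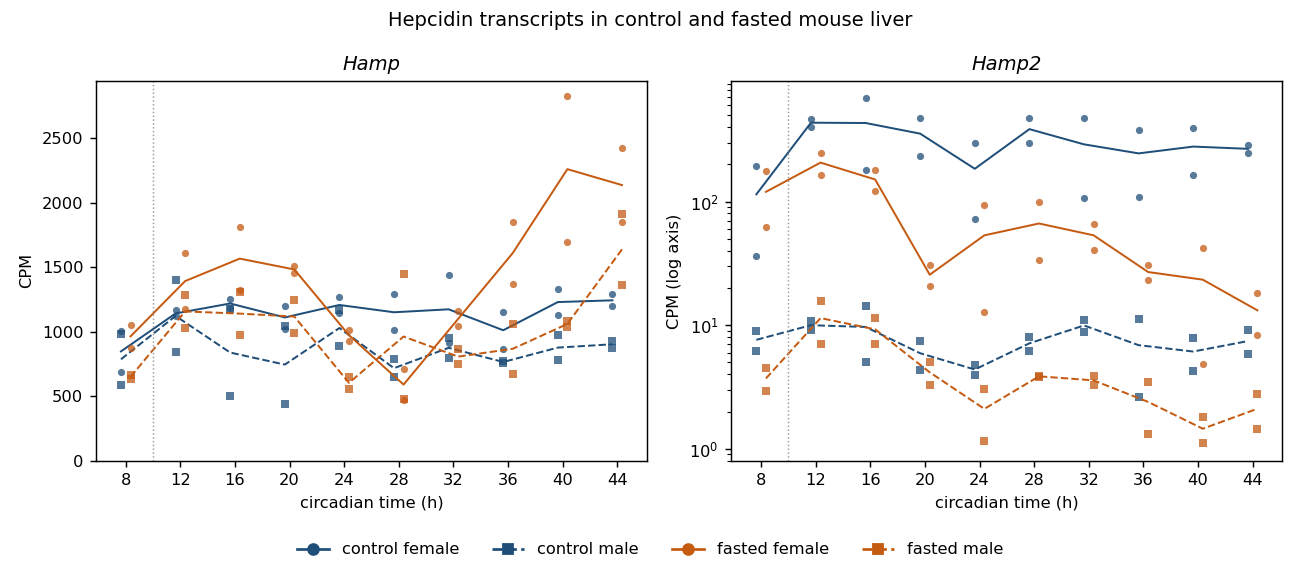
CPM of Hamp (linear axis) and Hamp2 (log axis) against circadian time in hours, with 1 point per liver and lines through the means of each treatment and sex; the dotted line marks the removal of food. Fasted livers had more Hamp than control livers at CT44 (1362 to 2423 against 875 to 1289 CPM), and Hamp2 was higher in females at every time and fell during the fast.

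Hamp2, the other hepcidin gene, was far higher in female than in male liver, and it fell during the fast. Control females of CT12 to CT44 had 72.9 to 684 CPM with a median of 296, and control males had 2.61 to 14.3 with a median of 7.71. Fasted females had 4.86 to 248 CPM with a median of 37.1, and fasted males had 1.1 to 15.7 with a median of 3.39. All females were above all males among the controls. The mean change with fasting was -1.86 on the log2 scale (SE 0.21, adjusted p = 7.9e-11), a fall to 0.275 times the control level.

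At CT44 the control females had 248 and 286 CPM of Hamp2 and the fasted females 8.28 and 18.1, while the males had 5.80 and 9.06 when fed and 2.78 and 1.44 when fasted. Within each sex the fasted livers lay below the control livers, although fasted females and control males were close together. The log2 difference at that time was -3.08 (SE 0.65, adjusted p = 0.00015). It was called at 6 of the 9 times after food removal and negative at all 9, and the calls from CT20 to CT40 were each lost without 1 or both sets of male replicates (adjusted p of up to 0.35). Those at CT28, CT32 and CT36 were also lost with limma on all libraries (adjusted p = 0.078, 0.093 and 0.074). Both fasted females were below both control females at 7 of these times, and both fasted males were below both control males at 5.

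The counts of Hamp2 were 5.28% to 54.6% of those of Hamp in control females, with a median of 23.4%, and 0.343% to 1.45% in control males, CT8 included. The lowest share among control females, with 766 counts of Hamp2, was that of the CT8 library rich in ribosomal RNA. In fasted females of CT12 to CT44 the median was 2.98%. On average over CT12 to CT44 the transcripts of the same hormone family thus moved apart, with Hamp higher and Hamp2 lower in fasted livers. Hamp was, however, below control from CT24 to CT32. Counted as 1 gene, Hamp and Hamp2 together did not differ on average (log2 0.08, adjusted p = 0.43). In control males the counts of Hamp2 were 146 to 474 per library, and how many of these were reads of Hamp was not tested.

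Bmp6 is the ligand that reports iron stores to hepatocytes and is made mainly by sinusoidal endothelial cells. It was a rare transcript that rose in fasted livers. Control livers of CT12 to CT44 had 6.08 to 12.6 CPM and fasted livers 7.87 to 17.7. At CT40 control males had 6.47 and 6.94 CPM and control females 9.12 and 8.48, against 12.7 and 10.4 in fasted males and 14.4 and 17.7 in fasted females. All fasted livers were above all control livers, which was the case at 4 of the 9 times. The mean log2 change was 0.39 (SE 0.04, adjusted p = 2.2e-10), and the change at CT40 was 0.82 (SE 0.13, adjusted p = 2.8e-06). At CT8, before food was removed, Bmp6 was 0.26 higher in the group to be fasted, which was not called (adjusted p = 0.41).

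Bmp2, the other endothelial ligand of hepcidin, rose by 0.36 (adjusted p = 1.4e-10). Of the 10 markers of sinusoidal endothelial cells, which include Lyve1 (1.57) and Fcgr2b (-0.29), 5 rose, 4 fell and 1 was not called, and their summed level was 448 to 642 CPM in control and 441 to 727 in fasted livers. The part of these cells in the rise of Bmp6 was not tested. Of the 19 tested genes of BMP and SMAD signalling to hepcidin outside the 10 genes, 7 rose and 7 fell, with a median log2 change of 0.01. Among all 21187 tested genes 6257 rose and 6976 fell, together 62.5%. This share stands behind every count of listed genes that rose or fell with fasting. The largest called changes in this list were those of Bmper, a secreted BMP-binding protein (1.34, adjusted p = 3.0e-06), of Smad9, a receptor-activated factor (0.76, adjusted p = 3.6e-08), and of the follistatin-like Fstl1 (-0.57, adjusted p = 4.9e-14). Hjv, the gene of the co-receptor hemojuvelin, and Hfe, the haemochromatosis gene, had mean changes of 0.01 each and were not called. Hjv was, however, higher at CT8 in the mice that were to be fasted (0.47, adjusted p = 0.0255). That call was lost without the CT8 library rich in ribosomal RNA (0.45, adjusted p = 0.28), with limma (0.48, adjusted p = 0.11), and without the first male (0.30, adjusted p = 0.43), the second male (0.67, adjusted p = 0.12) or the second female replicates (0.46, adjusted p = 0.33).

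Id1, a transcriptional target of BMP signalling in hepatocytes, was higher late in the fast. At CT36 control males had 4.92 and 6.09 CPM and control females 8.71 and 9.12, against 17.4 and 9.13 in fasted males and 23.9 and 17.2 in fasted females. The lowest fasted liver and the highest control liver were almost level, and the other fasted livers were well above. The log2 difference was 1.24 (SE 0.39, adjusted p = 0.0141) at CT36, 1.09 (adjusted p = 0.0216) at CT40 and 0.98 (adjusted p = 0.0389) at CT44. The spread between livers was wide, and each of these 3 calls was lost without 1 set of replicates in each sex (adjusted p of up to 0.65), and that at CT44 also with limma on all libraries (0.89, adjusted p = 0.062). On average over the times Id1 rose by 0.45 (SE 0.13, adjusted p = 0.0021), or by 0.38 with an adjusted p of 0.057 without the first female replicates.

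The other targets of the pathway moved in both directions. Of the 8 tested, Atoh8 rose (0.71, adjusted p = 4.6e-10), while Id3 (-0.83, adjusted p = 7.0e-11), the inhibitory Smad6 (-0.34, adjusted p = 3.7e-06) and 1 more gene fell, and 4 were not called. Smad7, the other inhibitory SMAD, was among those not called, with a change of 0.05. Atoh8 encodes a factor that acts on the hepcidin promoter, and Id3 is a close relative of Id1.

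Tmprss6, the hepatocyte protease that cleaves hemojuvelin and so restrains hepcidin, fell from CT20 on. At CT44 control males had 516 and 512 CPM and control females 474 and 477, against 368 and 321 in fasted males and 244 and 323 in fasted females. No fasted liver reached the control range, and the groups were separate at 6 of the 9 times. The log2 difference was -0.66 (SE 0.09, adjusted p = 4.1e-08) at CT44 and -0.38 (SE 0.03, adjusted p = 1.2e-15) on average, and it was called at 7 of the 9 times. The call at CT24 was lost without the first male replicates (-0.37, adjusted p = 0.075) and that at CT36 without either set (adjusted p = 0.071 and 0.078). At CT12 and CT16 the differences were 0.06 and -0.03 and were not called. At CT8, before food was removed, Tmprss6 was 0.23 higher in the group to be fasted, which was not called (adjusted p = 0.19). Under the alternatives that difference ran from 0.10 to 0.39. The highest value was that without the first female replicates, where the CT8 control female left was the library rich in ribosomal RNA.

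Tfr2, the hepatocyte receptor that senses transferrin loaded with iron, was slightly higher in fasted livers throughout. Control livers of CT12 to CT44 had 337 to 496 CPM and fasted livers 349 to 526. The ranges overlapped almost entirely, although both fasted males were above both control males at 8 of 9 times. The mean log2 change was 0.16 (SE 0.03, adjusted p = 2.1e-06), and no single time was called. At CT8, before food was removed, the difference was already 0.22 (SE 0.08, adjusted p = 0.21). Under the alternatives it ran from 0.14 to 0.31. The highest value was again that without the first female replicates, with the library rich in ribosomal RNA as the control female.

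**Figure D3:**
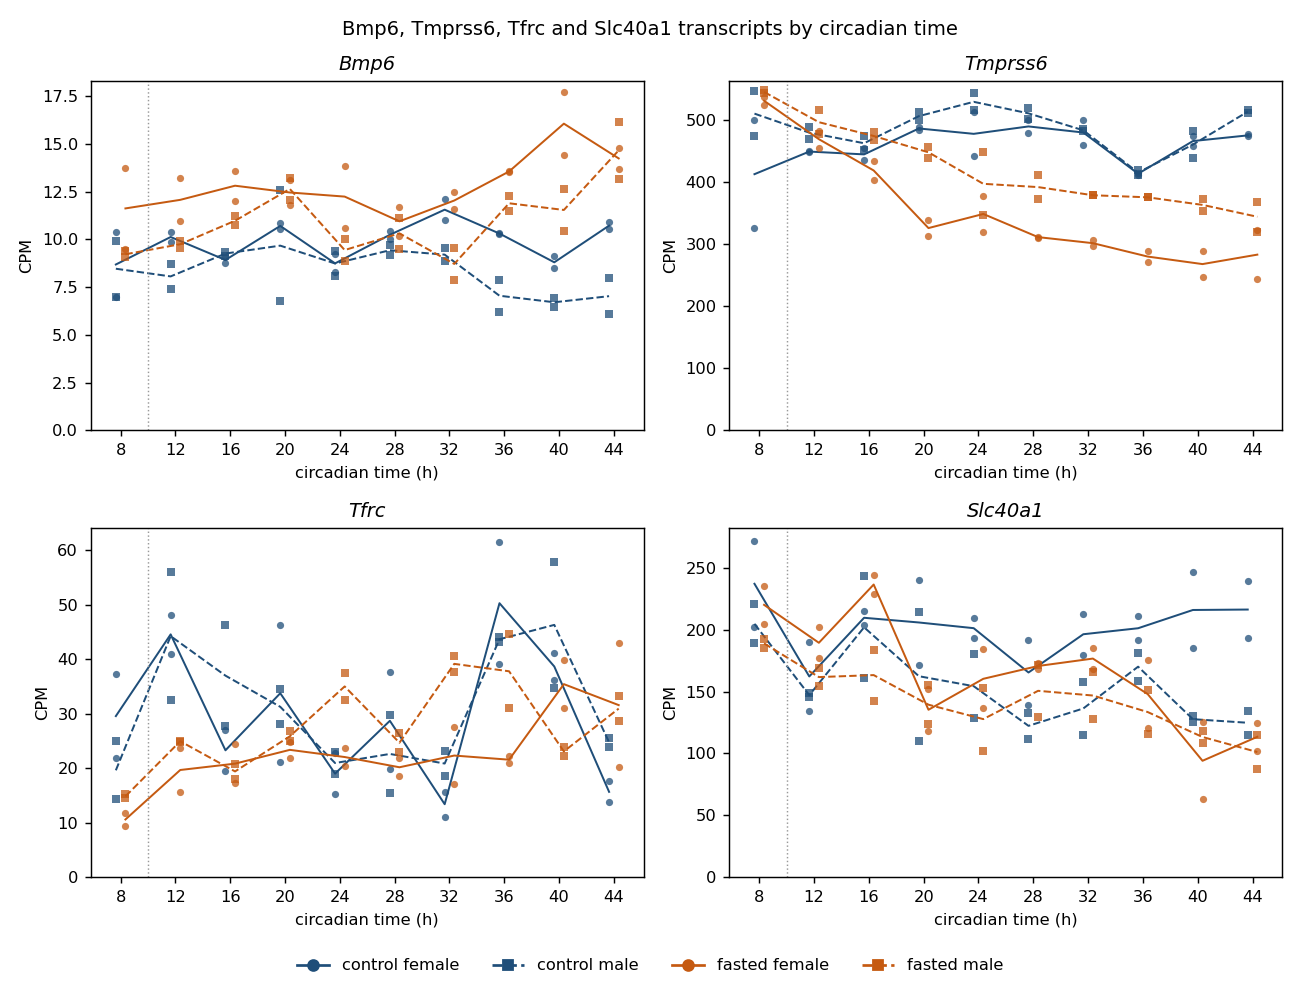
CPM of Bmp6, Tmprss6, Tfrc and Slc40a1 against circadian time in hours, with 1 point per liver and lines through the means of each treatment and sex; the dotted line marks the removal of food. Tmprss6 was lower in fasted livers from CT20 on, reaching 244 to 368 CPM at CT44, and the peaks of Tfrc in control livers at CT12 and CT36 were flatter in fasted livers.

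Iron regulatory proteins bind hairpins whose loop reads CAGTGN on a stem with an unpaired base. A search of the longest transcript of each gene for 27 bases with this loop and a paired stem found them in 28 of 21877 protein-coding genes (0.128%). For the genes described here the transcript with the most matches was searched instead, a more favourable choice. Matches lay in those of Tfrc, Slc40a1, Fth1 and Ftl1. They are shown because these transcripts share a control by iron, with the loop in capitals.
Tfrc 3′ UTR, first: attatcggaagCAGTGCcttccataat
Tfrc 3′ UTR, next: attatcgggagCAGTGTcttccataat
Tfrc 3′ UTR, next: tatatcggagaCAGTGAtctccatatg
Tfrc 3′ UTR, last: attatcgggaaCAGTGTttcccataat
Slc40a1 5′ UTR: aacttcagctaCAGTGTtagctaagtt
Fth1 5′ UTR: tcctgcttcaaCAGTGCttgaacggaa
Ftl1 5′ UTR: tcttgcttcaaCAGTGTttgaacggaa
Tfrc carries 4 of them after its coding part, where binding protects the message, and the other transcripts carry 1 each before theirs, where binding blocks translation.

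Tfrc brings transferrin iron into the cell. It differed between the groups in opposite directions at different times, and its mean change was not called (log2 -0.16, SE 0.08, adjusted p = 0.084). The mean change was called without the second male replicates (-0.27, adjusted p = 0.038) and without the filter on low counts (-0.17, adjusted p = 4.3e-05). At CT12 control males had 56.0 and 32.5 CPM and control females 48.1 and 41.0, against 24.8 and 25.1 in fasted males and 15.7 and 23.6 in fasted females. All fasted livers were below all control livers (log2 -1.0, SE 0.25, adjusted p = 0.0236). At CT32 the order was turned, with 23.2, 18.5, 11.1 and 15.7 CPM in control and 40.6, 37.7, 17.1 and 27.6 in fasted livers, males first (log2 0.82, SE 0.25, adjusted p = 0.0161). Tfrc was also called lower at CT36 (-0.71) and higher at CT44 (0.67). Each of these 4 calls was lost without either set of male replicates (adjusted p of up to 0.43), and those at CT12, CT36 and CT44 also without the first female replicates.

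Tfrc was the only one of the 10 genes called at CT8, before any food was removed, where 1.33% of all tested genes were called. Control males had 14.3 and 25 CPM and control females 21.9 and 37.2, against 15.2 and 14.5 and 11.8 and 9.47 in the livers of the fasted group. The highest control value was that of the library with the high share of ribosomal RNA. The difference (log2 -0.94, SE 0.25, adjusted p = 0.0445) was -0.72 without that library and no longer called (adjusted p = 0.59). The call was also lost with limma (-0.86, adjusted p = 0.24), with the replicate number as a block (-0.94, adjusted p = 0.054), and without either set of male replicates (adjusted p = 0.32 and 0.89) or the second female replicates (adjusted p = 0.44). At CT8 it was nearly as large as after 2 h without food.

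Of the 9 tested genes of iron uptake outside the 10, 2 rose and 5 fell, with a median log2 change of -0.36. Of all tested genes 62.5% were called for the mean change. Trf, which encodes the plasma carrier transferrin, fell by 0.54 (adjusted p = 9.5e-14), the ferrireductase Steap4 fell by 1.02 and the divalent metal transporter Slc11a2 fell by 0.45. Slc39a14, the importer of iron that is not bound to transferrin, rose by 0.37 (adjusted p = 2.5e-05). Of the 5 genes of iron regulatory protein control, Aco1, the gene of iron regulatory protein 1, fell by 0.46 (adjusted p = 1.1e-15). Fbxl5, whose product marks iron regulatory protein 2 for degradation, fell by 0.23 (adjusted p = 5.1e-09), and Cisd1, of the outer mitochondrial membrane, rose by 0.33 (adjusted p = 1.8e-12). Of the 7 tested transcripts with known iron-responsive hairpins outside the 10 genes, 4 rose and 2 fell, with Cdc42bpa at 0.52 (adjusted p = 5.2e-18) and Alas2, the red cell form of the first enzyme of haem synthesis, at -0.86 (adjusted p = 1.9e-13).

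Slc40a1 encodes ferroportin, the only known iron exporter of mammals, which macrophages of the liver hold in large amounts. Its transcript fell late in the fast. At CT40 control males had 130 and 125 CPM and control females 246 and 185, against 118.5 and 108 in fasted males and 125 and 63.0 in fasted females. At CT44 control males had 135 and 115 CPM and control females 239 and 193, against 115 and 87.6 and 102 and 125. The groups nearly touched at CT40, and the difference was larger among females. The log2 difference was -0.69 (SE 0.19, adjusted p = 0.0031) at CT40, or -0.46 with an adjusted p of 0.074 without the fasted female of 63.0 CPM, and -0.62 (SE 0.19, adjusted p = 0.0077) at CT44. The call at CT40 was also lost without the second female replicates (-0.56, adjusted p = 0.059), and that at CT44 without the second male replicates (-0.58, adjusted p = 0.071) or the first female ones (-0.47, adjusted p = 0.12). On average Slc40a1 fell by 0.24 (SE 0.06, adjusted p = 0.00096).

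Markers of Kupffer cells, the macrophages of the liver, moved in the same direction. Among all 21187 tested genes 6976 fell. Of the 10 markers tested, 9 fell with fasting and 1 was not called, with a median log2 change of -0.33, among them Adgre1 (-0.67), Cd5l (-0.45) and Timd4 (-0.40). Their summed level was 342 to 1125 CPM, with a median of 528, in control livers and 261 to 736, with a median of 405, in fasted livers. At CT40 the sums were 379 to 1125 CPM in control and 270 to 421 CPM in fasted livers. Cd163, the haemoglobin receptor of macrophages, which is not in that list, rose by 0.62 (adjusted p = 1.3e-11). The part of Kupffer cells in the fall of Slc40a1 was not tested. Over the 20 means of treatment and time, the genes whose log2 CPM went most closely with Slc40a1 were Wdfy4 (r = 0.89), Fgd2 (0.88), Prcp (0.87), Fcgr1 (0.87) and Dock2 (0.87), among 11566 genes with a mean log2 CPM of at least 1.

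**Figure D4:**
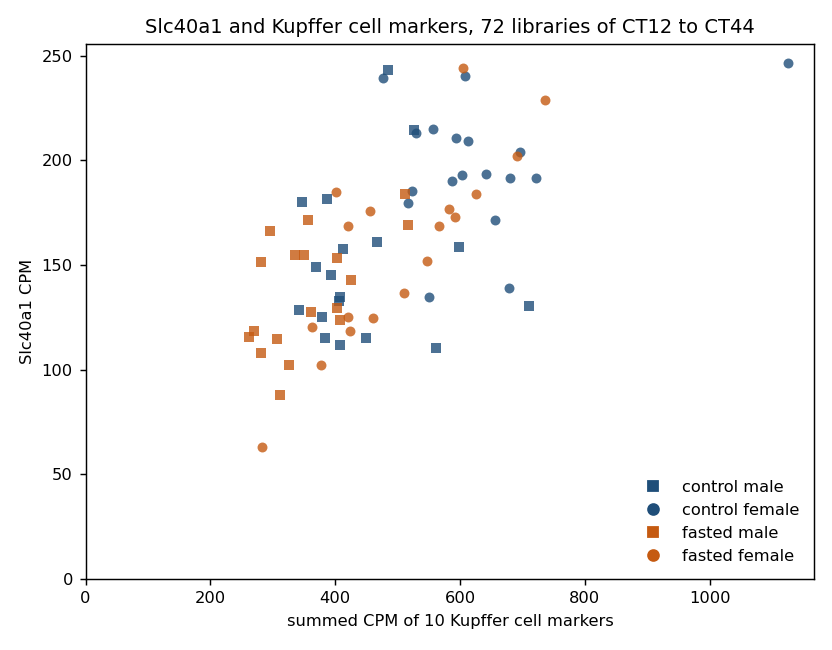
CPM of Slc40a1 (vertical axis) against the summed CPM of 10 Kupffer cell markers (horizontal axis) in the 72 livers of CT12 to CT44, coloured by treatment, with circles for females and squares for males. The 10 livers with the lowest marker sums were fasted and had 63.0 to 166 CPM of Slc40a1, and the control female with a sum of 1125 CPM had the highest Slc40a1 level of the 72 (246 CPM).

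Other genes listed with iron export, which include transporters and oxidases, did not fall with Slc40a1. Of the 6 tested, 3 rose and none fell, where 62.5% of all tested genes were called. The transporter Flvcr2 rose by 2.25 (adjusted p = 7.5e-21) and the haem transporter Slc48a1 by 0.30 (adjusted p = 1.3e-15). The plasma ferroxidase ceruloplasmin, Cp, rose by 0.15 (adjusted p = 0.0032).

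Fth1 and Ftl1 encode the heavy and light subunits of ferritin, the shell in which iron is stored, and the call was made for the heavy subunit alone. At CT40 control livers had 1111 and 1062 CPM of Fth1 in males and 1101 and 1099 in females, against 1417 and 1584 in fasted males and 1249 and 1285 in fasted females. The groups were well apart, as they were at 4 of the 9 times. The log2 difference was 0.34 (SE 0.07, adjusted p = 0.00018) at CT40 and 0.13 (SE 0.02, adjusted p = 4.1e-06) on average, and it was called at CT36, CT40 and CT44. All 3 calls were lost without the filter on low counts (adjusted p = 0.080, 0.14 and 0.24), that at CT40 also without the second male replicates (0.28, adjusted p = 0.073), and that at CT44 without the first or the second male replicates (adjusted p = 0.062 and 0.12). At CT8, before food was removed, Fth1 was already 0.15 higher on the log2 scale in the group to be fasted (adjusted p = 0.34). That difference exceeded the mean change of 0.13, but under the alternatives it ran from 0.03 to 0.30. The highest value came without the first female replicates, which left the library rich in ribosomal RNA as the control female of CT8. Ftl1 stayed between 1022 and 1689 CPM in control and between 917 and 1561 in fasted livers of CT12 to CT44. Its mean log2 change was 0.02 (SE 0.04, adjusted p = 0.68). Whether the subunits differed in their change was not tested.

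Reads of Ftl1 are shared with its copies, and its level is uncertain to that extent. Of 1479 windows of 76 bases in the Ftl1 transcripts, 587 (39.7%) also occur in Ftl1-ps1 and 231 (15.6%) in Ftl2-ps. Ftl1-ps1 was counted at 3.30% to 5.08% of Ftl1, and Fth1-ps at 0.064% to 0.233% of Fth1. Of the 5 tested genes of ferritin turnover and iron delivery, 3 rose and 2 fell, where 62.5% of all tested genes were called. Ncoa4, the receptor that takes ferritin to autophagosomes, rose by 0.67 (SE 0.04, adjusted p = 8.1e-20), and Timd2, a receptor for ferritin, fell by 0.58 (adjusted p = 3.2e-14). Scara5, another ferritin receptor, had a called change of 1.21 (SE 0.33, adjusted p = 0.0013), although its mean levels of 12.8 CPM in control and 13.2 in fasted livers were close.

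Genes of signals that reach hepcidin from outside the BMP pathway were also counted, with 62.5% of all tested genes called for the mean change. Of 14 tested genes of cytokine and fasting inputs, 8 rose and 4 fell. Ppargc1a, a coactivator of gluconeogenesis, rose by 1.73 (adjusted p = 1.3e-17), and Creb3l3, a liver factor that acts on the hepcidin promoter, rose by 0.78 (adjusted p = 8.1e-24). Il6ra, the receptor of interleukin 6, rose by 1.15 (adjusted p = 6.4e-17). Lifr, the receptor of leukaemia inhibitory factor, fell by 1.38 (adjusted p = 6.7e-21). Of 9 genes of haem and haemoglobin scavenging 5 rose and 3 fell, with the haemoglobin carrier haptoglobin, Hp, up by 0.69 (adjusted p = 4.5e-08) and Alas1, the first enzyme of haem synthesis, by 0.65 (adjusted p = 0.00024). Of 10 genes of mitochondrial iron and iron–sulphur clusters 5 rose and 3 fell, with the mitochondrial transporter Abcb10 at -1.06 (adjusted p = 1.3e-23) and the iron importers of the mitochondrion, Slc25a37 and Slc25a28, at -0.59 (adjusted p = 4.7e-13) and 0.40 (adjusted p = 4.0e-09).

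At single times most of the calls among the 10 genes fell in the last 3 times. Their number was 1 at CT12, where 1.6% of all tested genes were called, 1 at CT16 (23.4%), 2 at CT20 (36.6%), 1 at CT24 (24.1%) and 2 at CT28 (21%). It was then 3 at CT32 (17.7%), 6 at CT36 (26.8%), 6 at CT40 (39.9%) and 8 at CT44 (39.4%). Ftl1 and Tfr2 were the genes called at no time. Without the second male replicates the sum over the 9 times fell from 30 calls to 16.

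Males and females differed in iron genes already when fed. Over the 40 control livers, 6 of the 10 genes were called between the sexes, against 39.2% of all tested genes. Hamp2 was higher in females by 5.26 on the log2 scale (SE 0.31, adjusted p = 7.0e-19), a ratio of 38.3, and both females were above both males at all 10 times. Id1 (0.72, SE 0.17, adjusted p = 0.00073), Hamp (0.39, SE 0.11, adjusted p = 0.0042), Slc40a1 (0.39, SE 0.08, adjusted p = 0.00021) and Bmp6 (0.25, SE 0.06, adjusted p = 0.0008) were also higher in females. Tfr2 was lower in females (-0.10, SE 0.04, adjusted p = 0.0393), a call that was lost without the first male (adjusted p = 0.47), the second male (adjusted p = 0.079) or the second female replicates (adjusted p = 0.15), without the CT8 library rich in ribosomal RNA (adjusted p = 0.080) and without the filter on low counts (adjusted p = 0.34). For Hamp the call was lost without the second female replicates (0.31, adjusted p = 0.13).

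Markers of several cell types other than hepatocytes were higher in control females too, where 39.2% of all tested genes were called between the sexes. Those of red blood cells were not, with 0 of 6 higher and 5 lower in females. All 10 Kupffer cell markers were higher in females, with summed levels of 477 to 1125 CPM against 342 to 710 in males of CT12 to CT44. Of 10 endothelial markers 9 were higher in females, with summed levels of 547 to 642 against 448 to 540 CPM. The part of these cells in the sex differences of Slc40a1 and Bmp6 was not tested. Among fasted livers of CT12 to CT44, 7 of the 10 genes were called between the sexes, against 38% of all tested genes. There Tmprss6 (-0.30, adjusted p = 7.9e-08) and Fth1 (-0.16, adjusted p = 0.00021) were lower in females, and Hamp2 was still higher by 3.74 (adjusted p = 2.0e-13).

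**Figure D5:**
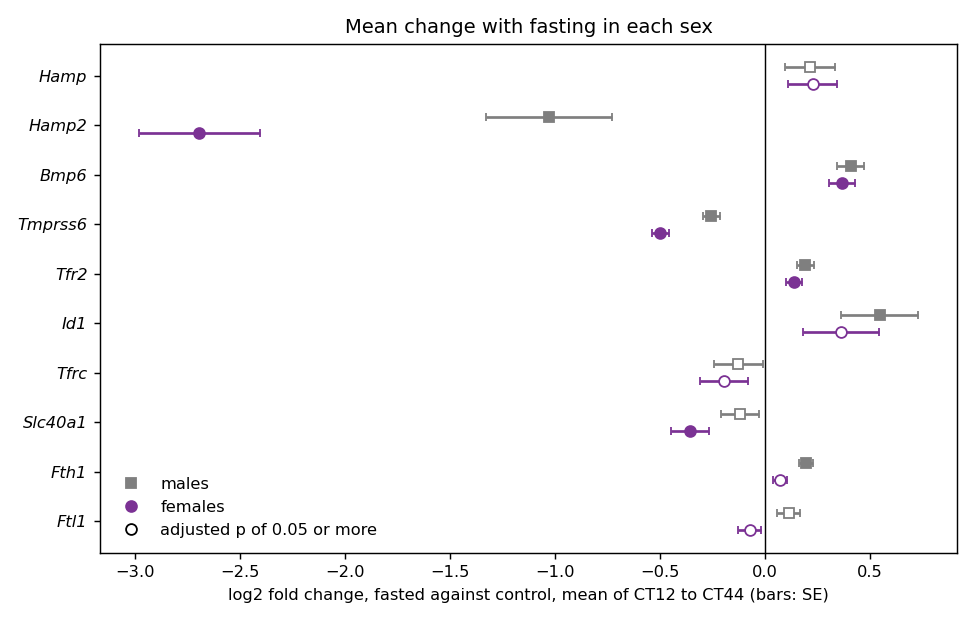
Mean log2 fold change of fasted against control livers over CT12 to CT44 (horizontal axis) for each of the 10 genes in males (squares) and females (circles), with bars of 1 standard error and open symbols where the adjusted p was 0.05 or more. Hamp2 fell by 2.69 in females and by 1.03 in males, and Tmprss6 by 0.50 and 0.26.

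The size of the change with fasting was then compared between the sexes. In males 6 of the 10 genes were called (46.3% of all tested genes) and in females 5 (58.4%). Tested as a difference between the sexes, the change with fasting was larger in females for Hamp2 (by -1.67, SE 0.41, adjusted p = 0.0048) and for Tmprss6 (by -0.24, SE 0.06, adjusted p = 0.0039), which makes 2 of the 10 genes against 12.4% of all tested genes. Hamp2 fell by 2.69 in females and by 1.03 in males, and Tmprss6 fell by 0.50 and by 0.26. Both calls were lost without either set of male replicates, when the differences were -1.61 and -1.73 for Hamp2 (adjusted p = 0.18 and 0.13) and -0.22 and -0.25 for Tmprss6 (adjusted p = 0.23 and 0.15), and that of Tmprss6 also without the filter on low counts (adjusted p = 0.057). For Hamp the difference between the sexes was 0.01 (SE 0.17), for Fth1 it was -0.12 (SE 0.05, adjusted p = 0.076) and for Slc40a1 -0.24 (SE 0.13, adjusted p = 0.22). The difference for Fth1 was called with DESeq2 (adjusted p = 0.030) and without the CT8 library rich in ribosomal RNA (adjusted p = 0.037), and that for Slc40a1 without the filter on low counts (adjusted p = 0.027).

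Rhythms of 24 h were tested as a cosine and a sine of circadian time. In the 40 control livers 2 of the 10 genes were rhythmic, against 41.8% of all genes tested. Tfrc peaked near CT14.0 with a log2 range from peak to trough of 1.09 (adjusted p = 0.0011), and Tmprss6 peaked near CT0.52 with a range of 0.20 (adjusted p = 0.0099), which was lost without the second male replicates (0.19, adjusted p = 0.11). For Tfrc the 4 control livers of CT36 had 39.1 to 61.5 CPM and those of CT32 had 11.1 to 23.2. Hamp had a fitted range of 0.15 (adjusted p = 0.68), and its rhythm in control livers was not called, whereas without the second male replicates the range was 0.36 and called (adjusted p = 0.044).

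In the 36 livers taken during the fast, fitted with a straight trend beside the cosine, 4 of the 10 genes were called, against 47.1% of all genes tested. Hamp had a range of 1.02 with a peak near CT16.4 (adjusted p = 0.00065), Bmp6 0.36 near CT17.5 (adjusted p = 0.0017), Fth1 0.25 near CT13.5 (adjusted p = 0.00091) and Id1 0.90 near CT14.7 (adjusted p = 0.033). The call of Id1 was lost without the first (adjusted p = 0.23) or the second female replicates (adjusted p = 0.12), and without that trend Id1 (adjusted p = 0.051) and Fth1 (adjusted p = 0.14) were not called. Fth1 was also lost without the filter on low counts (adjusted p = 0.21). Tfrc, rhythmic in control livers, had a range of 0.04 in fasted livers (adjusted p = 0.97). The difference between the fasted and control rhythm was called for 6 of the 10 genes, against 23.2% of all genes tested, namely Bmp6, Tmprss6, Hamp, Tfrc, Fth1 and Id1. Each of the 6 was lost without at least 1 set of replicates, which left 2 or 3 calls. The fast ran through a single stretch of 34 h, so that a rhythm and a curved response to the fast cannot be told apart.

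Levels in control livers of CT12 to CT44 were divided by the kilobases that all annotated exons of a gene cover. This length can exceed that of the transcript present in liver. By this measure the order of the genes ran as follows. Hamp was highest, with a median of 2520 CPM per kilobase, followed by Ftl1 (908), Fth1 (298), Tmprss6 (142) and Tfr2 (90.5). Slc40a1 (19.99), Id1 (6.92), Tfrc (4.51) and Bmp6 (2.36) were far lower. The ranges of Hamp (1080 to 3502) and Ftl1 (763 to 1260) overlapped, those of Ftl1, Fth1, Tmprss6 and Tfr2 did not, and those of Id1, Tfrc and Bmp6 overlapped. Those of Slc40a1 (12.27 to 27.38) and Id1 (2.392 to 17.81) overlapped too. The gap between Ftl1 and Fth1 depends on the lengths used, 1.34 and 3.469 kilobases. Before the division their medians were 1216 and 1032 CPM. Hamp2 took no single place in this order, with a median of 507 and a range of 125 to 1173 in control females and a median of 13.2 and a range of 4.48 to 24.6 in control males.

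By the same measure of likeness over 20 means, Hamp went most closely with Gm44662 (r = 0.91), the non-coding gene on its opposite strand, and then with Sec14l4 (0.85), AU040320 (0.81), Flt1 (0.80) and Jund (0.80). Tfrc went most closely with Ranbp1 (0.85), Farsa (0.81), Ctps1 (0.81), Abce1 (0.80) and Utp20 (0.80). These means share their libraries, and the correlations are given as a description.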

How the data were processed

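Liver RNA of 80 mice was sequenced by the authors after a stranded poly-A preparation. The authors deposited whole-number read counts per gene, and these were used as deposited, with no normalization. Their processing notes name Trimmomatic, HISAT2, DESeq2 and GRCm39, while the counting program is not given in the sources used here. The deposited normalized and exon tables were not used. Gene positions and sequences come from GENCODE M21 and RefSeq on GRCm38, another build than that of the files.

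Libraries were grouped by title into treatment, time and sex, with 2 mice in each. Genes were kept by filterByExpr (minimum count 10, minimum total 15) and scaled by TMM, and CPM values carry a prior count of 2 on the log scale. The quasi-likelihood test of edgeR 4.0.16 (R 4.3.3) was used with Benjamini–Hochberg adjustment and a threshold of 0.05. Differences between treatments and sexes were fitted over all libraries and tested genes. The rhythm tests were fitted on their own subsets of libraries, each filtered and scaled anew. They covered 20114 genes for the control rhythm, 19933 for the fasted rhythm and 20965 for their difference. P-values measure the spread between mice. Totals of 25534901 to 59927771 counts per library set the counting precision. The code was tested on simulated data. Alternatives were DESeq2 1.42.0, limma 3.58.1, other scaling and filters, a replicate block and leaving out libraries. The genes and lists were chosen with earlier results of these data known. Named are the 10 genes, up to 3 genes of each list with the largest called mean change, the regulators Hjv, Hfe, Bmp2, Smad6, Smad7, Creb3l3, Ppargc1a, Trf and Slc39a14 whatever they did, copies of the ferritin genes, and the 5 genes most like Hamp, Tfrc and Slc40a1 by Pearson's r of log2 CPM over 20 means. A gene that this rule would name is not reported here. Cd163, named beside the Kupffer cell markers, was placed there after its value was seen. The text given with the series is a review without methods for these data, so the tests follow the unit of the values.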

Additional observations from a re-analysis of the deposited data

Results flagged for a closer look

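The change with fasting differed between females and males, by a test of the difference itself, for Hamp2 (-1.67, female minus male, log2) and for Tmprss6 (-0.24). The rhythm differed between fasted and control livers for Hamp (adjusted p = 0.0111), Bmp6 (adjusted p = 0.00278), Tmprss6 (adjusted p = 0.00470), Id1 (adjusted p = 0.0393), Tfrc (adjusted p = 0.0127) and Fth1 (adjusted p = 0.0338), all by edgeR's quasi-likelihood test.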

How the results depend on the processing

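Of 1068 results of single genes under the alternatives, 931 kept their direction and their side of the threshold, 94 lost their call, 21 gained one and 22 turned in direction, and 74 of 94 counts of calls stayed within 1.5 times. Leaving out a set of replicates leaves 1 liver for each treatment, time and sex, which is then assumed to vary like the others. For these counts the cause was not tested. At CT8, where 1 gene was called, 2 were called without a filter on low counts, 0 with limma, 0 with an adjusted p under 0.01, 0 without the library rich in ribosomal RNA, and 0 to 4 without 1 set of replicates. At an unadjusted p under 0.05, 4 genes passed there with limma, 5 with a replicate block, 1 without that library and 1 to 6 without 1 set of replicates, and DESeq2 called 1. The sex difference of the fasting effect had 0 to 2 calls without 1 set of replicates (0 without either set of males, where 2 genes passed at an unadjusted p under 0.05, and 3 calls with DESeq2), and the single times had 16 to 29. The control rhythm was called for 1 gene with time as a factor, the fasted rhythm for 2 without a linear change, and the rhythm difference for 3 without it, for 2 at an adjusted p under 0.01 and for 2 to 3 without 1 set of replicates.

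With the replicate number as a block, 8 genes were called on average, 30 over the single times, 6 between the sexes in control livers, 2 for the sex difference of the fasting effect and 0 at CT8, where Tfrc had -0.94 (adjusted p = 0.054). Within a time and sex, deviations of same-numbered fasted and control livers correlated at -0.056 to 0.249 over 20 pairs, with 1 above 0.1. The correlation compares the treatments, so it cannot show a batch within 1 of them.

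The results that turned in direction were not called. Without 1 set of replicates, the difference at CT8 ran from -0.20 to 0.15 for Hamp (0.04 without the first female replicates), from -1.34 to 0.63 for Hamp2, from -0.13 to 0.17 for Id1 (-0.04 without the first male replicates) and from -0.086 to 0.31 for Ftl1. Id1 at CT8 was also -0.0059 with DESeq2 size factors, -0.0040 without a filter, -0.00055 with limma and -0.00089 with DESeq2, and without the library rich in ribosomal RNA Id1 was -0.11 and Ftl1 -0.068. Between the sexes in control livers, Tfrc ran from -0.23 to 0.049 and Ftl1 from -0.016 to 0.070 (-0.0055 without the first female replicates). The sex difference of the fasting effect ran from -0.11 to 0.13 for Hamp (-0.0996 without the second male replicates), from -0.082 to 0.0023 for Bmp6, from -0.46 to 0.060 for Id1 and from -0.32 to 0.16 for Tfrc (0.0049 without the second female replicates). For Hamp it was -0.034 without the second fasted female of CT40, an alternative chosen after seeing the data.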

Other observations

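Markers of cell types other than those described above were also counted, with 62.5% of all tested genes called for the mean change. Of 7 markers of stellate cells, 3 rose and 4 fell with fasting. Of 6 cholangiocyte markers 5 fell and none rose, with a median log2 change of -0.61, and their summed level was 24.7 to 66.3 CPM in control and 6.78 to 50.7 CPM in fasted livers. Of 6 tested markers of red blood cells 2 fell and none rose, and of 8 lymphocyte markers 4 fell and none rose. Of 8 hepatocyte markers 5 rose and 1 fell. Among the red blood cell markers, Alas2 was lower in control females than in control males (log2 -3.47, adjusted p = 5.1e-29), and the globin genes Hba-a1, Hba-a2, Hbb-bs and Hbb-bt differed by -0.49, -0.50, -0.44 and -0.51.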
